A study of Mus musculus with 16 samples.

Results

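The 10 genes described here encode the parts of the cell that display peptides to T lymphocytes, and they were taken by symbol from the islet RNA-sequencing tables, where all 10 were found in each table, of 17361 genes in the Flox and cKO table and 17318 genes in the Ctrl and OE table. They comprise the class I heavy chains H2-K1 and H2-D1 and their light chain B2m, the class I peptide supply genes Tap1, Tapbp and Psmb8, and the class II genes H2-Aa, H2-Ab1, H2-Eb1 and Cd74. The libraries were prepared from handpicked pancreatic islets of C57BL/6J mice and fall into 4 groups of 4. Flox mice were homozygous for a floxed B7-H4 allele, in which exon 2 of Vtcn1, the gene that encodes the immune checkpoint molecule B7-H4, lies between loxP sites. cKO mice carried the same alleles and a Rip-Cre transgene, driven by the rat insulin II promoter, and were fed a normal chow diet like the Flox mice. The Flox libraries carried no Cre, so that the transgene and the deletion cannot be told apart. The Ctrl and OE mice began a high-fat diet (HFD) at 6 weeks of age, were infused through the pancreatic duct after 8 weeks of diet with a control adeno-associated virus or with one that expresses B7-H4 under an insulin promoter, and gave their islets 5 weeks later. The genotype of these mice is WT in the series' design text and Flox in the study's methods, and the age of the chow-fed mice was not given in the sources used here.

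Class I molecules sit on nearly every nucleated cell and present peptides that the proteasome cuts from proteins made inside the cell. The transporter encoded by Tap1 and Tap2 carries these peptides into the endoplasmic reticulum, where tapasin, the product of Tapbp, helps to load them, and Psmb8 is a catalytic subunit that interferon adds to the immunoproteasome in place of Psmb5. Class II molecules are normally made by macrophages, dendritic cells and B lymphocytes, and display peptides from ingested material. The alpha chain H2-Aa and the beta chain H2-Ab1 pair and travel with the invariant chain Cd74. H2-Eb1 is the beta chain of a second class II molecule, whose alpha chain gene H2-Ea is known to be disrupted by a deletion in C57BL/6 mice, so that H2-Eb1 has no partner of its own in this strain. H2-Ea was looked for here, but its symbol is in neither table, so nothing can be said of its level. In islets resident macrophages are the known main carriers of class II. Interferon-gamma raises the transcription of both classes.

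Of the 10 genes, 8 lie in the major histocompatibility complex on chromosome 17, within 1.35 megabases of the GRCm38 assembly, which is the build mm10 named in the submitters' processing notes. In the GENCODE annotation, Tapbp lies at chr17:33915899-33929292 and H2-K1 at chr17:33996017-34000347, followed by Tap1 at chr17:34187553-34197225, Psmb8 at chr17:34197721-34201454, H2-Ab1 at chr17:34257689-34269419, H2-Aa at chr17:34282744-34287823, H2-Eb1 at chr17:34305867-34316674 and H2-D1 at chr17:35262730-35267499. B2m lies at chr2:122147686-122153083, and Cd74 is outside the complex as well. All are annotated as protein-coding. H2-K1 and H2-D1 have closely similar sequences, as do the H2-Q and H2-T genes, so the values of these genes depend on how the authors' counting shared reads between them.

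The start regions of 4 members are shown because the class I and the class II genes are described separately below, and they let the 2 kinds of promoter be compared. The bases are those upstream of the RefSeq start site (GRCm38.p6), 5′ to 3′ on the gene's own strand, at chr17:34000348-34000597 (minus strand, the outer of 2 listed windows) for H2-K1, chr2:122147437-122147685 (plus) for B2m, chr17:34287824-34288073 (minus) for H2-Aa and chr17:34305617-34305866 (plus) for H2-Eb1. Capitals mark matches, on either strand, to CCAAT (Y box core), TGACG (X2 box core), GGGATTCC (enhancer A core), GAAANNGAA and GAANNGAAA (interferon response cores) or TTCNNNGAA (gamma-activated sequence core).
H2-K1: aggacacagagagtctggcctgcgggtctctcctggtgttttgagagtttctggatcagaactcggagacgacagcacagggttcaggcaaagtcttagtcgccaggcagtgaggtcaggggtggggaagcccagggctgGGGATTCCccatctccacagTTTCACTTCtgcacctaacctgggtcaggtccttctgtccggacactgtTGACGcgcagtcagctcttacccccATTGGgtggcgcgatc
B2m: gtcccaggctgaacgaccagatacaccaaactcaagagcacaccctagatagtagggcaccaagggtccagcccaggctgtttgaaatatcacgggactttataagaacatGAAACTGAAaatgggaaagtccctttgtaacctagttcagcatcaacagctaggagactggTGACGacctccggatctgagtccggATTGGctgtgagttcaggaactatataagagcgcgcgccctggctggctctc
H2-Aa: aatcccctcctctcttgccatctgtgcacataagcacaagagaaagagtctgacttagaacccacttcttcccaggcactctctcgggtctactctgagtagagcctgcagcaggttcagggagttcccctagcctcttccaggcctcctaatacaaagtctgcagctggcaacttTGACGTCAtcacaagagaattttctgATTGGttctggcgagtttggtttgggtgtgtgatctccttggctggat
H2-Eb1: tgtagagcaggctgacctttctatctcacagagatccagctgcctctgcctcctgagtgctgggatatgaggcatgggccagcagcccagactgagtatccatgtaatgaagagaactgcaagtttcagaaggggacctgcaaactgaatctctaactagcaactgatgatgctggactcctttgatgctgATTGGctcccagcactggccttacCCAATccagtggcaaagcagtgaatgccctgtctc
The H2-K1 window holds GGGATTCC, the core of the class I enhancer A that NF-kB proteins are known to bind, beginning 110 bases before the start, and the H2-D1 window holds the same letters beginning 170 bases before its start. Over 190 bases aligned without gaps at a shift of 60 bases, the H2-K1 and H2-D1 windows were identical at 166 positions (87.4%). GGGATTCC occurred in 0.889% of the 32851 RefSeq windows of 250 bases, and in these 2 of the 8 members that have a window (Tap1, Tapbp and Psmb8 were searched as well). The H2-Aa window holds TGACG on each strand as 1 overlapping palindrome, with CCAAT on the minus strand closer to the start, which are the cores of the X2 and Y boxes that the class II regulatory complex is known to bind. CCAAT was found in 7 of the 8 members and in 33.8% of all windows, and TGACG in 5 of the 8 and in 17.8%. GAAANNGAA, an interferon response core, was found in B2m and in 7.13% of all windows, and the related GAANNGAAA, added after the windows were seen, in H2-K1 and H2-D1 and in 6.31%. TTCNNNGAA was found in Psmb8 and in 7.02% of all windows.

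The values are FPKM, read fragments normalised to transcript length and library size, as the authors deposited them, and read totals are unknown. Vtcn1 itself, the targeted gene, was at or below 0.216 FPKM in all cKO and Flox libraries, so its loss could not be checked at this level, and it was 40.01 to 128 FPKM in the OE libraries against 0.0636 to 0.371 FPKM in Ctrl. The islets contained exocrine tissue in amounts that differed between libraries: 19 acinar genes such as Prss2 took 37.4% to 47.4% of the summed FPKM in cKO, 7.65% to 36.6% in Flox, 11.5% to 14.9% in OE, and 5.69%, 59.3%, 77.5% and 2.24% in Ctrl1, Ctrl2, Ctrl3 and Ctrl5. The beta cell genes Ins1 and Ins2 were abundant in all libraries, at their lowest in Ctrl3. Among the chow-fed libraries only Flox17 held the intestinal genes Clca1 (8.09 FPKM), Mptx1 (15.9 FPKM) and Lypd8 (13.6 FPKM) at 1 FPKM or more. In bulk islets, fewer cells of a type and less RNA per cell cannot be told apart.

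In chow-fed islets, the 3 class I genes did not overlap between the groups, with all cKO values under the lowest Flox value, whereas the class II genes overlapped. H2-K1 was 100.9, 93.0, 95.3 and 81.2 FPKM in cKO8, cKO9, cKO12 and cKO38, against 113, 117, 241 and 258 FPKM in Flox16, Flox17, Flox20 and Flox21. The cKO values lay close together, and the Flox values fell into a lower pair near the cKO level and a higher pair. H2-D1, the second heavy chain, was 111, 96.5, 97.0 and 94.7 FPKM in cKO and 134, 116, 239 and 242 FPKM in Flox. B2m, without which heavy chains do not reach the surface, was 54.7, 60.3, 47.0 and 44.3 FPKM in cKO and 86.3, 72.0, 141 and 168 FPKM in Flox. The same 2 Flox libraries, Flox20 and Flox21, were high for all 3 genes, and these had the smallest acinar shares among the chow-fed libraries, at 11.01% and 7.65%.

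Tested by limma on log2(FPKM + 0.5) over the 11804 genes whose mean reached 0.5 FPKM, B2m fell by 1.10 ± 0.24 on the log2 scale (SE, 4 against 4 libraries, adjusted p = 0.0229) and H2-D1 fell by 0.80 ± 0.22 (adjusted p = 0.0398). H2-K1 differed by -0.87 ± 0.28 and did not pass (adjusted p = 0.0621). Thus 2 of the 10 members were called lower and 0 higher at an adjusted p below 0.05, beside 12.8% of all tested genes called lower and 1.02% called higher. Groups without overlap, as seen in 3 of 10 members, were found in the lower direction in 15.4% of all genes and in the higher direction in 1.32%. The whole table was shifted downwards: the log2 fold changes of the 11804 genes had a median of -0.34. Relative to that median the differences were -0.76 for B2m, -0.53 for H2-K1 and -0.46 for H2-D1. After median-of-ratios scaling, which set the median to about 0 and turned 1511 lower and 120 higher calls into 147 and 133, B2m differed by -0.72 ± 0.16 (adjusted p = 0.053), H2-K1 by -0.49 ± 0.18 (adjusted p = 0.127) and H2-D1 by -0.42 ± 0.14 (adjusted p = 0.103), and no member was called.

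**Figure D1:**
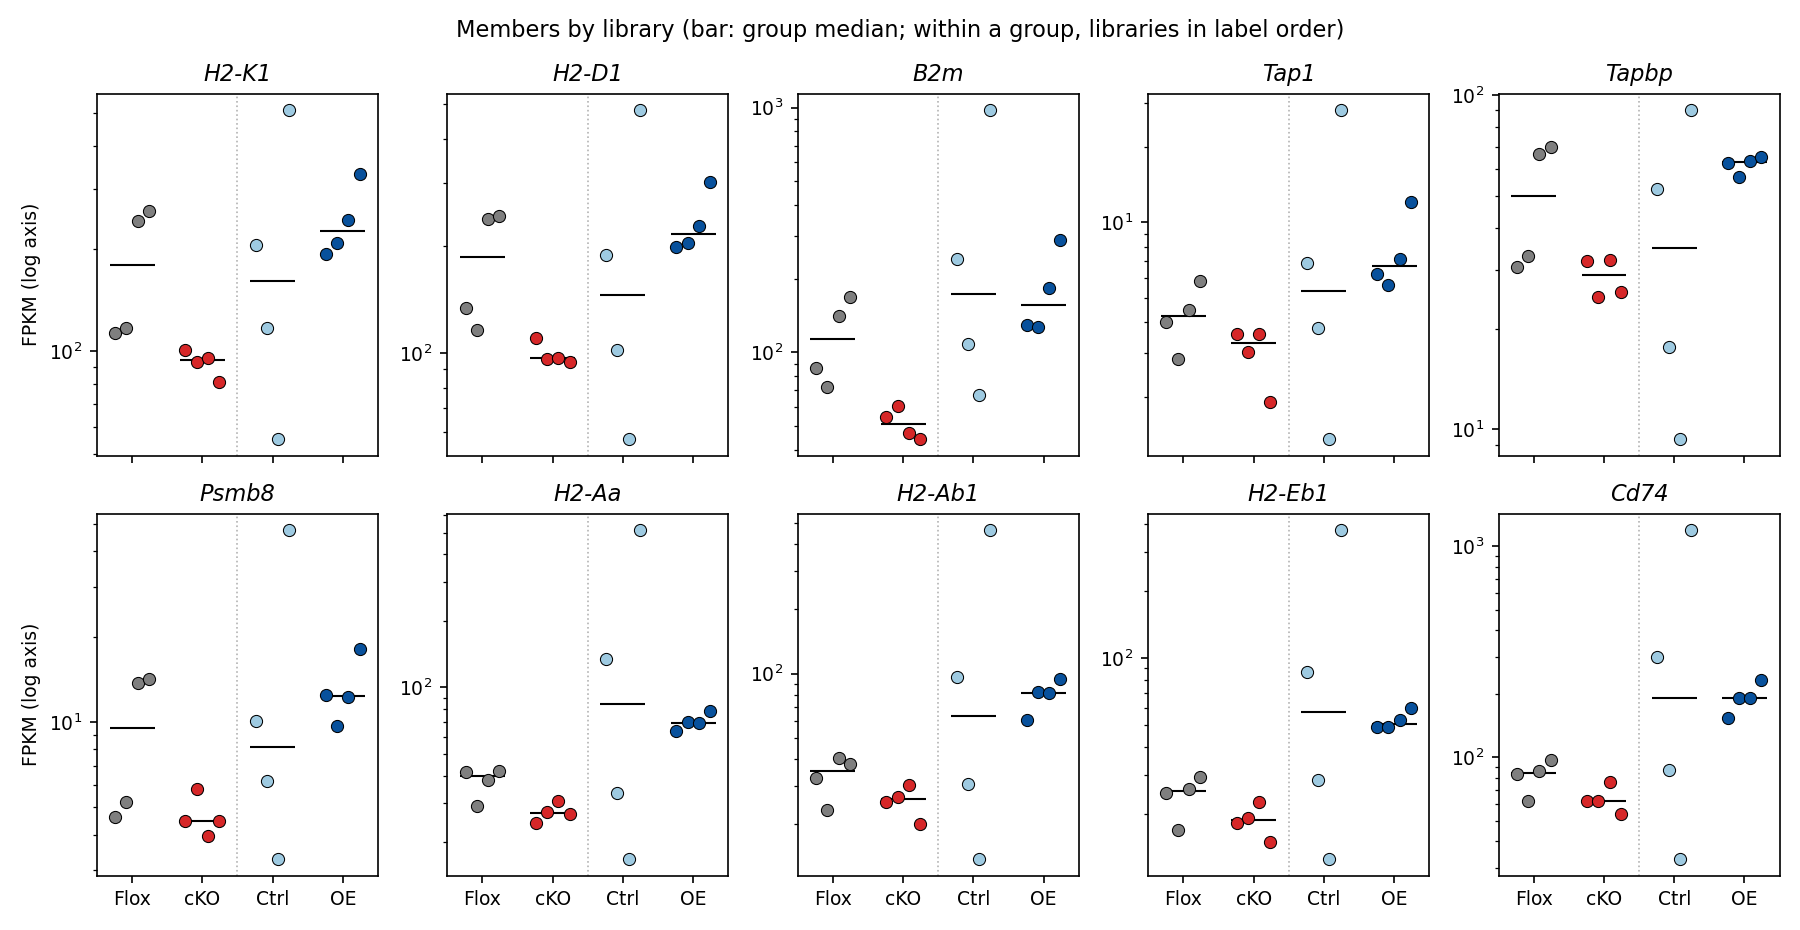
FPKM on log axes of the 10 members in the 16 libraries, 1 point per library in label order and a bar at each group's median, with the 2 separately normalised tables on either side of the dotted line. For H2-K1, H2-D1 and B2m every cKO point lies below every Flox point, and in each panel the Ctrl points reach from the lowest (Ctrl3) to the highest (Ctrl5) value of the HFD libraries.

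The class I peptide supply genes had the same direction with more overlap. Tapbp was 31.98, 24.9, 32.1 and 25.8 FPKM in cKO and 30.6, 33.0, 66.7 and 69.7 FPKM in Flox (log2 difference -0.70 ± 0.26, adjusted p = 0.0735). Psmb8 was 4.46, 5.81, 3.97 and 4.48 FPKM in cKO and 4.61, 5.20, 13.8 and 14.1 FPKM in Flox (-0.78 ± 0.36, adjusted p = 0.127). In both genes Flox20 and Flox21 were again the higher Flox libraries, while Flox16 and Flox17 lay within or next to the cKO range. Tap1 was 3.57, 3.05, 3.58 and 1.92 FPKM in cKO and 4.01, 2.85, 4.47 and 5.82 FPKM in Flox (-0.43 ± 0.22, adjusted p = 0.138). It was low in all chow-fed libraries, well under its partner Tap2, which was 12.4 to 16.9 FPKM in cKO and 8.78 to 20.4 FPKM in Flox (-0.09 ± 0.23).

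The class II genes differed less between cKO and Flox than the class I genes did, by about the median of the whole table. H2-Aa was 24.3, 27.4, 30.6 and 26.9 FPKM in cKO and 41.4, 29.2, 38.4 and 42.1 FPKM in Flox. Only Flox17 lay within the cKO range (log2 difference -0.45 ± 0.17, adjusted p = 0.0634). Cd74 was 62.0, 62.0, 76.7 and 53.9 FPKM in cKO and 83.1, 61.8, 86.1 and 97.5 FPKM in Flox (-0.36 ± 0.17, adjusted p = 0.110). H2-Ab1 was 20.1 to 30.2 FPKM in cKO and 23.1 to 40.6 FPKM in Flox, and H2-Eb1 was 15.0 to 22.6 FPKM and 16.9 to 29.4 FPKM. Flox17 was the lowest Flox library for all 4 class II genes, and Flox16, which resembled Flox17 in class I, was in class II next to Flox20 and Flox21. Within Flox, the highest value was 2.09 to 2.33 times the lowest for the 3 class I genes and 1.44 to 1.75 times for the 4 class II genes. The class II log2 differences had a median of -0.36, beside -0.34 over all genes, -0.87 for the 3 class I genes and -0.70 for the peptide supply genes. Against the median of all genes, H2-Aa differed by -0.11, and H2-Ab1, H2-Eb1 and Cd74 by -0.03, -0.01 and -0.02. After median-of-ratios scaling H2-Aa was -0.07, and the latter 3 had small positive values (0.01, 0.03 and 0.02). No test compared class I with class II.

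Which members were called changed when single libraries were left out and when the acinar share was added as a covariate. Without Flox17 (Flox replicate 2), the library with intestinal transcripts, all 10 members were called lower, but so were 57.2% of all tested genes. Without Flox16, 5 members were called lower beside 21.3% of all genes. Without cKO12 or Flox21 1 member was, beside 2.78% and 0.997% of all genes. Without cKO9, cKO38 or Flox20 no member was called, and then 0.144%, 0.608% and 1.01% of all genes were called lower (6 members without Flox16, 5 without each of the other 3 and Flox21, and 8 without cKO12 had an unadjusted p below 0.05). The acinar share did not overlap between cKO and Flox, so that genotype and exocrine tissue cannot be told apart. With that share as a covariate, no gene in the table was called (220 were lower and 752 higher at an unadjusted p below 0.05), the difference of B2m was -0.23 ± 0.19, and those of H2-K1 and H2-D1 were 0.10 ± 0.17 and 0.07 ± 0.11. The summed FPKM of 10 macrophage markers was 61.1 to 82.0 in cKO and 53.8 to 119 in Flox, with C1qa, a complement gene of tissue macrophages, at 29.8 to 38.8 and 24.4 to 43.9 FPKM. The T lymphocyte gene Cd3d was listed at 0 in all cKO libraries and at no more than 0.0850 FPKM in Flox. The 8 endothelial markers summed to 80.9 to 109 FPKM in cKO and 108 to 187 FPKM in Flox, with Pecam1 at 6.36 to 7.55 and 9.48 to 17.6 FPKM. These 3 lists overlapped between the groups, and, beside the acinar genes, 2 others did not. The 10 beta cell markers took 25.8% to 32.8% of the summed FPKM in cKO and 35.4% to 54.7% in Flox. The 6 B lymphocyte markers in the table summed to 0.965 to 2.25 FPKM in cKO and 3.01 to 5.67 FPKM in Flox. Nearly all of that sum was Cd79a, a chain of the B cell receptor complex (0.854 to 2.14 and 2.95 to 5.33 FPKM), while the B cell surface gene Ms4a1 was at most 0.0435 FPKM in any of these 8 libraries. The part of these cells in the class I and class II differences was not tested.

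**Figure D2:**
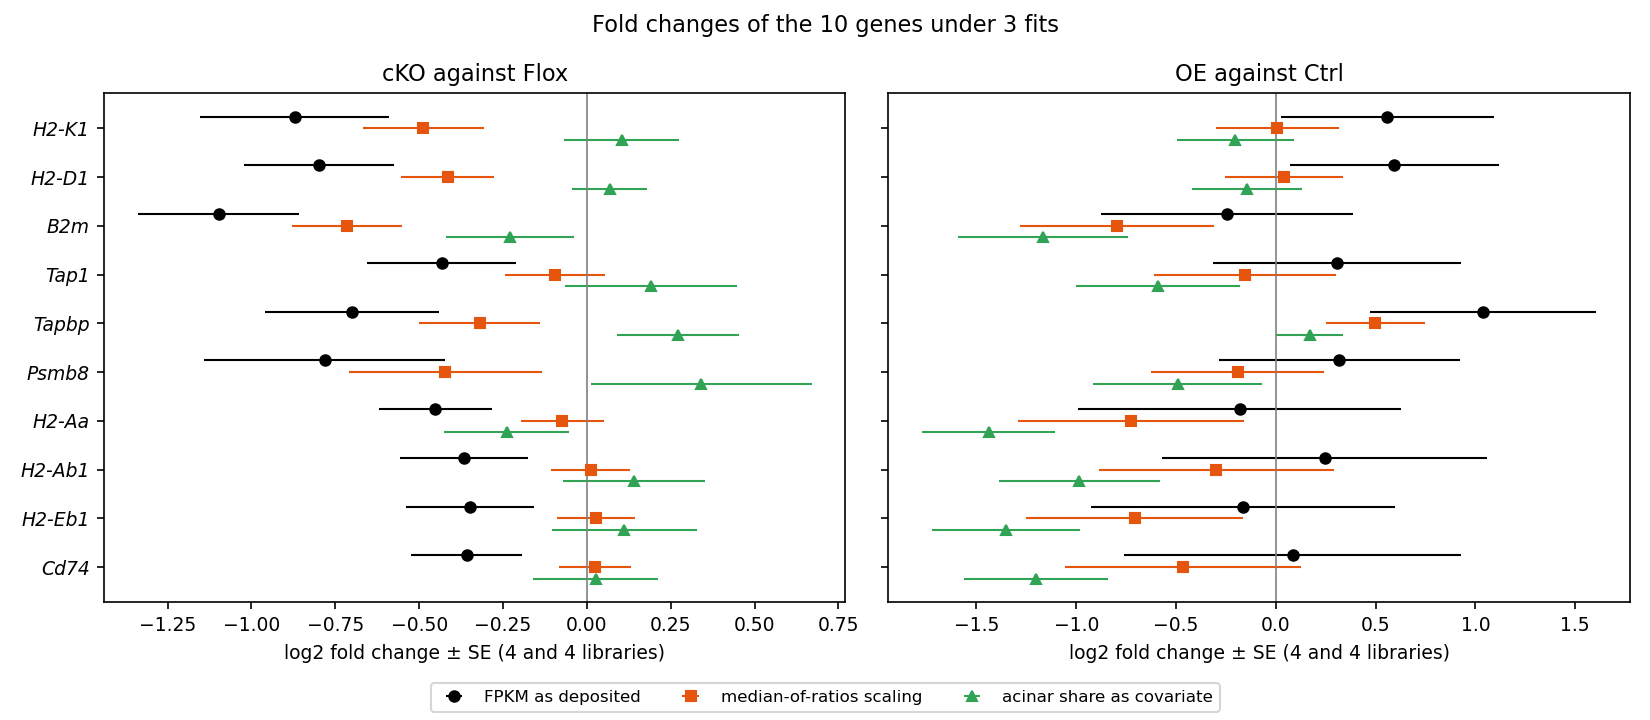
Log2 fold changes with standard errors of the 10 members in cKO against Flox and in OE against Ctrl, from the FPKM as deposited, after median-of-ratios scaling and with the acinar share as a covariate (4 and 4 libraries each). In cKO against Flox the deposited values lie between -1.10 and -0.35 and move towards or past 0 in the other fits; in OE against Ctrl the standard errors of the deposited values reach 0.85.

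Of 48 other antigen presentation genes, 36 passed the filter in the chow table, and 11 of these were called lower and 0 higher, a share to be set beside the same 12.8% and 1.02%. Their median log2 difference was -0.39, close to the -0.34 of all genes. After median-of-ratios scaling 0 of the 36 were called. Among relatives of class I, 2 of 6 were called, namely H2-T23, which encodes the nonclassical Qa-1 molecule (15.6 to 18.8 FPKM in cKO and 24.7 to 49.998 in Flox, -0.97 ± 0.21, adjusted p = 0.0171), and H2-Q4 (8.46 to 10.7 and 11.7 to 28.9 FPKM, -0.92, adjusted p = 0.0349). Neither overlapped between the groups. They were among 8 of the 36 genes without overlap in the lower direction, beside 15.4% of all tested genes. Among 6 peptide loading genes 3 fell, including Erap1, the aminopeptidase that trims class I peptides (5.67 to 7.20 and 8.93 to 19.8 FPKM, -0.97, adjusted p = 0.0202), and the chaperone Canx (-0.66, adjusted p = 0.0253). Of 8 proteasome genes 2 fell, the interferon-inducible activator subunits Psme1 (-0.78, adjusted p = 0.0272) and Psme2 (-0.67, adjusted p = 0.0359). The others were not called. Among these the constitutive subunits Psmb5, Psmb6 and Psmb7 differed by -0.21 ± 0.16, -0.38 and -0.32, and Psme3 by -0.46. The inducible subunits Psmb9 and Psmb10 differed by -0.76 and 0.25. In the class II list 2 of 6 fell, the invariant chain protease Ctss (11.4 to 13.7 and 12.5 to 33.2 FPKM, -0.79, adjusted p = 0.048) and H2-DMb1, a chain of the peptide editor of class II (-0.71, adjusted p = 0.0433). Of 10 regulators 2 fell, Jak1 (-0.65) and Ifngr1 (-0.60), which are parts of interferon-gamma signalling and were named after their values were seen.

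In HFD islets the 4 Ctrl libraries were spread so widely that every OE value of every member lay inside the Ctrl range. H2-K1 was 205, 117, 55.1 and 511 FPKM in Ctrl1, Ctrl2, Ctrl3 and Ctrl5, and 193, 207, 243 and 331 FPKM in OE1 to OE4. H2-D1 was 189, 102, 57.3 and 482 FPKM in Ctrl and 199, 204, 228 and 302 FPKM in OE. B2m was 240, 108, 67.1 and 978 FPKM in Ctrl and 129, 127, 183 and 288 FPKM in OE. Ctrl5 was the highest and Ctrl3 the lowest of the 8 libraries for each, and within OE the library OE4 was the highest.

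The class II genes showed the same order in Ctrl with a wider range. H2-Aa was 135, 33.3, 16.7 and 515 FPKM in Ctrl and 63.4, 69.6, 69.1 and 78.4 FPKM in OE. Cd74, the most abundant of the 10 members in Ctrl5, was 297, 86.9, 32.9 and 1195 FPKM in Ctrl and 153, 191, 191 and 234 FPKM in OE. H2-Ab1 was 96.0, 30.8, 13.7 and 465 FPKM in Ctrl and 61.1, 82.3, 81.1 and 94.7 FPKM in OE. H2-Eb1 was 12.6 to 375 FPKM in Ctrl and 48.9 to 59.9 FPKM in OE. From Ctrl3 to Ctrl5 the class II genes thus spanned 29.9-fold to 36.4-fold and the 3 class I genes 8.41-fold to 14.6-fold, whereas over the OE libraries the class II genes spanned 1.22-fold to 1.55-fold, the 3 class I genes 1.52-fold to 2.26-fold and the peptide supply genes 1.15-fold to 2.13-fold. All 10 members had the order Ctrl5, Ctrl1, Ctrl2, Ctrl3 from high to low, which 43.6% of the 12132 tested genes shared.

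For the peptide supply genes, Tap1 was 6.87, 3.78, 1.36 and 28.1 FPKM in Ctrl and 6.22, 5.64, 7.13 and 12.02 FPKM in OE. Psmb8 was 10.1, 6.19, 3.28 and 47.6 FPKM in Ctrl and 12.4, 9.65, 12.3 and 18.1 FPKM in OE. Tapbp was 52.3, 17.6, 9.34 and 90.2 FPKM in Ctrl and 62.7, 56.8, 63.3 and 65.3 FPKM in OE. Ctrl5 exceeded Ctrl1, the next Ctrl library, 4.09-fold for Tap1 and 4.72-fold for Psmb8 but 1.72-fold for Tapbp.

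None of the 10 members was called in OE against Ctrl by limma, and 0 reached an unadjusted p below 0.05, beside 0% of all genes called lower and 0.033% called higher. The log2 differences were 0.56 ± 0.54 for H2-K1, 0.59 ± 0.53 for H2-D1, -0.24 ± 0.63 for B2m, -0.18 ± 0.81 for H2-Aa and 0.09 ± 0.85 for Cd74. Tapbp had the largest value among the members, 1.04 ± 0.57 (adjusted p = 0.591), beside a median of 0.44 over all genes. These standard errors leave differences of 2-fold in either direction undetected for most members. No member had groups without overlap, which 0.964% of all genes showed in the lower and 5.61% in the higher direction. Of 39 other antigen presentation genes that passed the filter, 0 were called.

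Libraries that stood apart decided these values. Without Ctrl5, 5 members reached an unadjusted p below 0.05 and 0 were called: H2-K1 differed by 1.11 ± 0.48, H2-D1 by 1.15 ± 0.46, Tapbp by 1.56 ± 0.51, Psmb8 by 1.04 ± 0.47 and H2-Ab1 by 1.18 ± 0.54 (each with an adjusted p of 0.235), while the median of all genes was 0.68. Without Ctrl3, the library with the largest acinar share, the class II differences were negative, as for Cd74 at -0.72 (adjusted p = 0.998). With the acinar share as a covariate, H2-Aa was called lower in OE (-1.44 ± 0.33, adjusted p = 0.0464), H2-Eb1 and Cd74 differed by -1.35 and -1.20 (adjusted p = 0.0724 and 0.0917), and H2-K1 and H2-D1 by -0.20 and -0.14. In that fit 3.72% of all genes were called lower. Ctrl1 and Ctrl5 had smaller acinar shares than any OE library, and Ctrl2 and Ctrl3 had larger ones.

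Ctrl5 also carried more transcripts of macrophages, T lymphocytes, dendritic cells and endothelium. The 10 macrophage markers summed to 545 FPKM there, against 42.3 to 166 in the other Ctrl libraries and 86.9 to 112 in OE, with Adgre1, which encodes F4/80, at 3.96 FPKM and at most 3.05 FPKM elsewhere. The 7 T lymphocyte markers summed to 20.3 FPKM in Ctrl5 and to 3.74 FPKM or less in each of the other 15 libraries, with Cd3d at 1.30 FPKM. The 8 dendritic cell markers summed to 19.2 FPKM in Ctrl5 and 6.49 FPKM or less elsewhere, and Flt3 was 0.388 FPKM there. The 8 endothelial markers summed to 747 FPKM in Ctrl5 and 475 FPKM in Ctrl1, beside 210 to 263 FPKM in OE. The 6 B lymphocyte markers were not highest in Ctrl5: they summed to 4.12 FPKM there, 0.892 to 5.02 FPKM over the Ctrl libraries and 7.31 to 9.47 FPKM in OE, without overlap and again mostly from Cd79a. The 7 fibroblast markers (23.1 to 58.9 FPKM in Ctrl and 11.6 to 20.97 FPKM in OE) and the 4 adipocyte markers in the table (17.1 to 55.4 and 9.20 to 13.3 FPKM) did not overlap between the groups either. The 9 intestinal markers summed to 3.37 to 32.762 FPKM in Ctrl and 32.765 to 45.1 FPKM in OE, so that the groups nearly touched. Most of that sum was Vil1 (3.36 to 32.7 FPKM in Ctrl and 30.7 to 39.2 FPKM in OE). Fabp2, Sis and Alpi were 0 in every Ctrl library. In OE, Sis was 0.00489 to 0.328 FPKM and Alpi 0.0125 to 1.34 FPKM, and Fabp2 was 0 to 1.19 FPKM. The part of any of these cells in the members' levels was not tested.

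**Figure D3:**
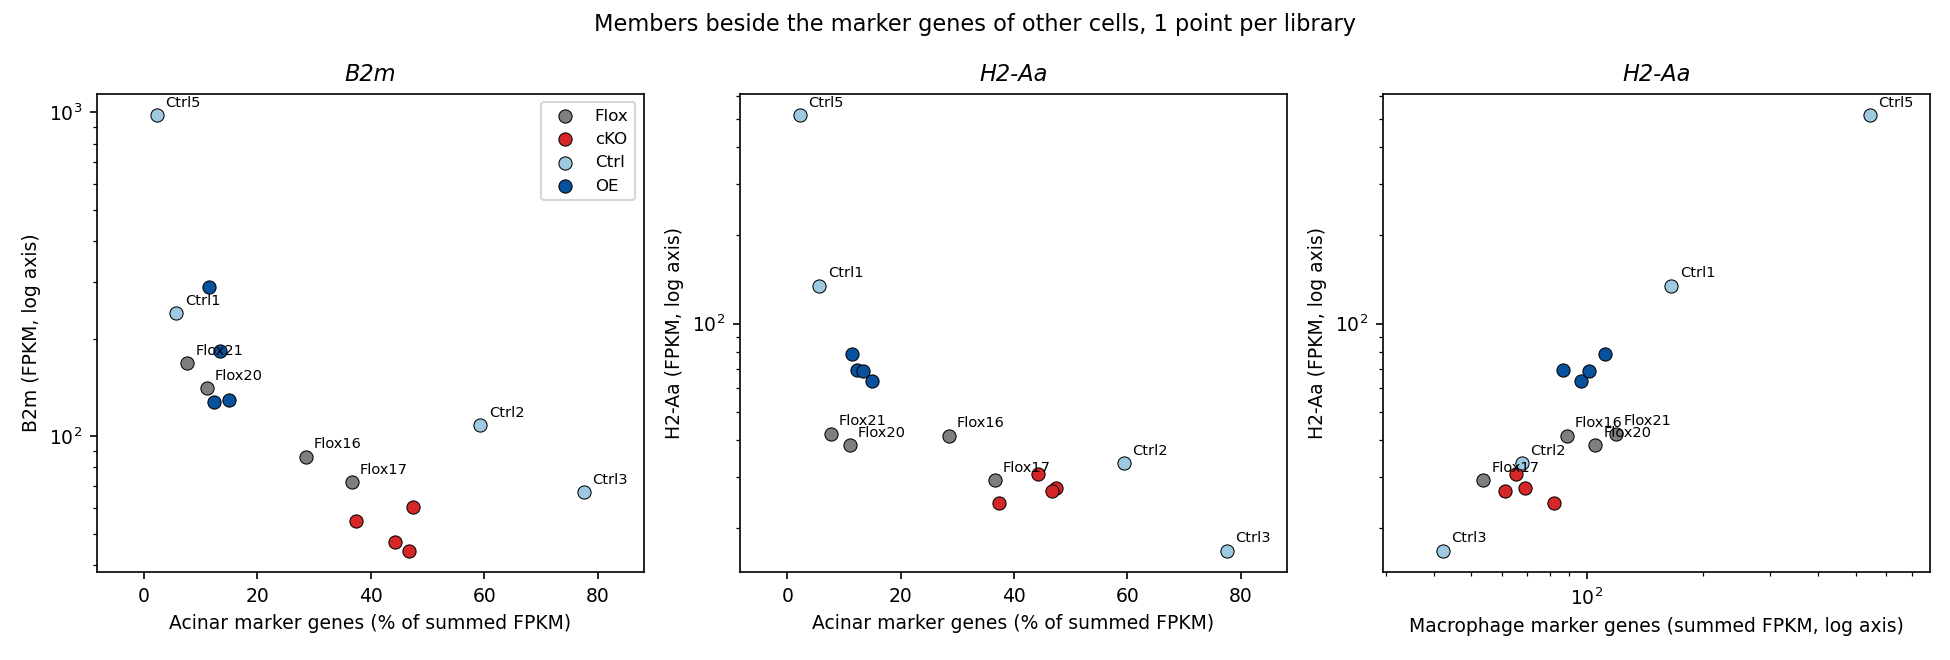
B2m and H2-Aa (FPKM, log axes) against the acinar share of the summed FPKM (percent) and, for H2-Aa, against the summed FPKM of 10 macrophage markers (log axis), 1 point per library. The Ctrl libraries run from 2.24% acinar share and 515 FPKM of H2-Aa in Ctrl5 to 77.5% and 16.7 FPKM in Ctrl3, and Ctrl5 lies apart from the other 15 libraries on the macrophage axis at 545 FPKM.

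Ratios of 2 genes within a library do not depend on how the library was scaled. In all, 5 ratios of 2 members and the ratio of Psmb8 to Psmb5, which is no member, were tested in each comparison by a two-sided exact permutation test, and of the 12 tests 2 reached 0.0286, the smallest p that 4 against 4 libraries allow, with an adjusted p of 0.171, so that none passed. B2m over H2-K1 was 1.17, 0.925, 1.22 and 1.91 in Ctrl and 0.671, 0.615, 0.754 and 0.870 in OE. The groups did not overlap, and the log2 ratio differed by -0.80 (means 0.33 ± 0.44 in Ctrl and -0.47 ± 0.22 in OE, SD). H2-Ab1 over H2-Aa, the beta and alpha chains of the same class II molecule, was 0.713, 0.925, 0.821 and 0.903 in Ctrl and 0.963, 1.18, 1.17 and 1.21 in OE, again without overlap (log2 difference 0.43). Cd74 over H2-Aa was 1.96 to 2.61 in Ctrl and 2.41 to 2.98 in OE (log2 difference 0.26, exact p = 0.0571, adjusted p = 0.229).

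In chow islets none of the ratios separated the groups. B2m over H2-K1 was 0.542, 0.648, 0.493 and 0.545 in cKO and 0.763, 0.617, 0.584 and 0.652 in Flox (log2 difference -0.23, exact p = 0.0857, adjusted p = 0.257). Psmb8 over Psmb5, the inducible over the constitutive subunit, was 0.0901 to 0.123 in cKO, while it was 0.0839, 0.128, 0.218 and 0.237 in Flox16, Flox17, Flox20 and Flox21 (log2 difference -0.62, exact p = 0.229, adjusted p = 0.457). Flox20 and Flox21 thus had the higher share of the inducible subunit as well as the higher class I level. In the HFD table the same ratio was 0.769 in Ctrl5 and 0.121 to 0.345 in the other 7 libraries. H2-D1 over H2-K1 stayed between 0.877 and 1.19 in all 16 libraries, and its log2 difference was 0.07 in cKO against Flox and 0.04 in OE against Ctrl.

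**Figure D4:**
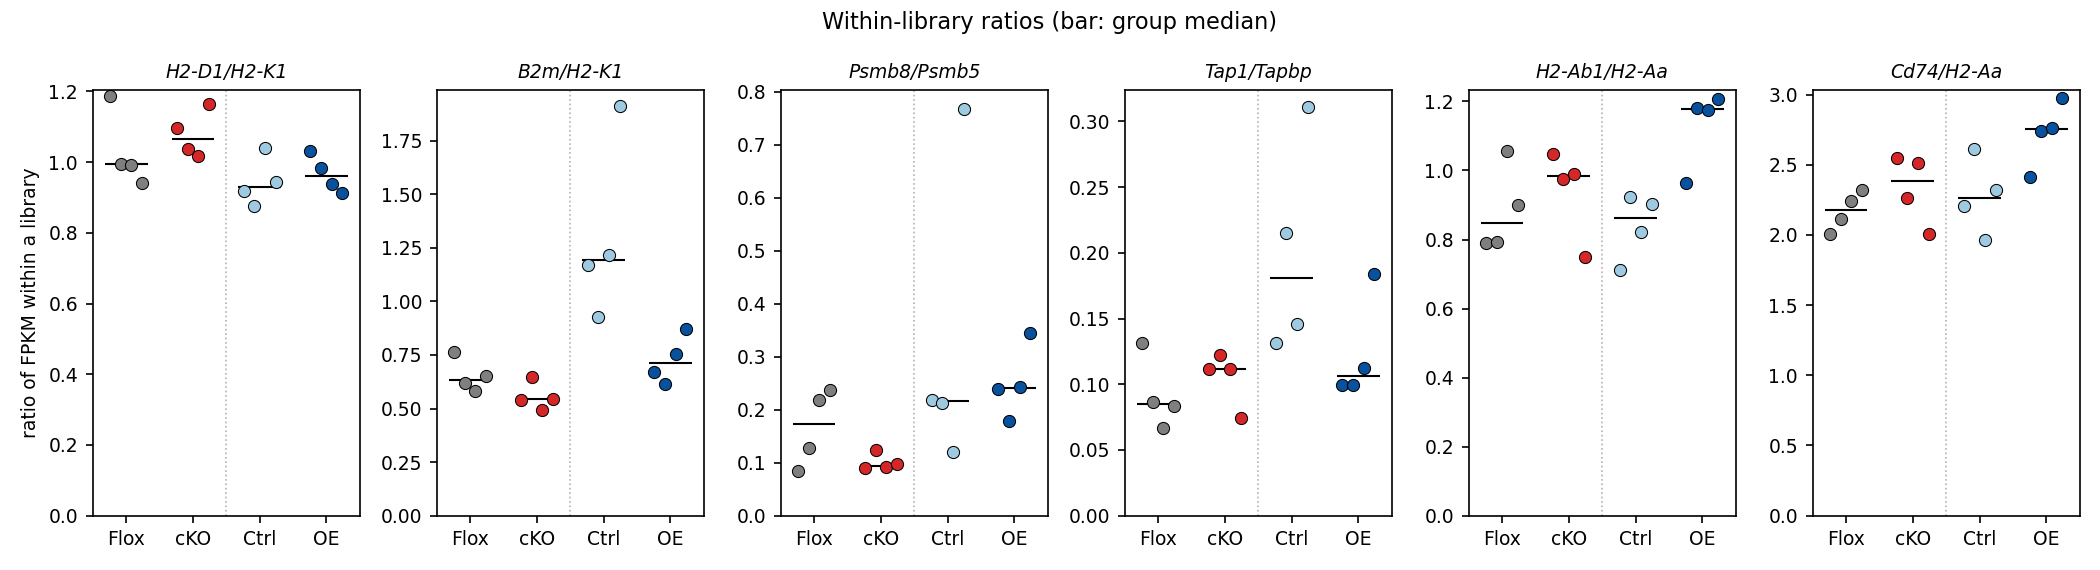
Within-library ratios of FPKM for 6 gene pairs, 1 point per library and a bar at each group's median, with axes that start at 0. OE lies below Ctrl for B2m/H2-K1 and above Ctrl for H2-Ab1/H2-Aa, and H2-D1/H2-K1 stays between 0.877 and 1.19 throughout.

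The members varied together from library to library. After centring log2(FPKM + 0.5) on each group's mean over 16 libraries, Pearson's r was 0.987 to 0.995 among the 6 pairs of class II genes, 0.895 to 0.992 among the 15 pairs of class I and peptide supply genes, and 0.856 to 0.964 between the 2 classes. Without Ctrl5 these ranges were 0.971 to 0.991, 0.815 to 0.988 and 0.702 to 0.924. The points share their library's makeup and scaling, and the values are a description. No background over other gene pairs was set beside these ranges. In the Ctrl libraries, 43.6% of the 12132 tested genes shared the order of all 10 members. Of 10378 other genes whose mean reached 1 FPKM in each table, those most like the mean of the 3 class I genes were H2-Q4 (r = 0.982), Laptm5 (0.980), H2-T23 (0.975), Ttyh3 (0.975) and Cxcl16 (0.975). Those most like the mean of the 4 class II genes were Hcls1 (0.987), Gnas (0.982), Usb1 (0.981), Ctss (0.981) and Use1 (0.980). H2-Q4, H2-T23 and Ctss are antigen presentation genes of the list above, and Laptm5 and Hcls1 are known as genes of blood-derived cells. Ttyh3, Cxcl16, Gnas, Usb1 and Use1 are not on that list, and Gnas and Usb1 stood above Ctss. Such values of r were therefore not limited to antigen presentation genes.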

How the data were processed

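Islet RNA sequencing gave 16 libraries in 2 tables of FPKM values, which the authors calculated before the tables were deposited. The build named in the submitters' processing notes is mm10, and the aligner, counting tool, annotation and read depth were not given in the sources used here, so no counting error could be set on a value. The tables were normalised separately, and tests were made within each. Genes whose mean reached 0.5 FPKM across a table's 8 libraries were tested with limma 3.58.1 (R 4.3.3) on log2(FPKM + 0.5), with trended and robust empirical Bayes variances and Benjamini-Hochberg adjustment over all tested genes. A log2 fold change is on that scale and understates the change of low genes. Nothing in the labels says whether libraries of a group are separate animals or pools, so p-values measure the spread between these libraries. Ratios of 2 genes were compared by exact permutation tests (scipy 1.17.1, Python 3.11.15). Positions are from GENCODE vM21 on GRCm38, and promoter bases from RefSeq windows, found for 8 members. H2-Ab1 and Cd74 have no window there. Named genes are the 10 members, Vtcn1, up to 8 called antigen presentation genes per comparison and direction by absolute log2 fold change, Psmb5 and Tap2, the first marker of each cell type list and the 5 genes most correlated with each class; Clca1, Mptx1, Lypd8, C1qa, Cd79a, Ms4a1, Ins2 and the genes of the closing observations were added after their values were seen, and some genes of these lists are not reported here. The members and lists were chosen with earlier results of these data known. The scripts were tested on simulated data. Alternatives were other pseudocounts, filters, scaling and variance settings, a replicate block, the acinar share as a covariate, the 3 libraries per group of the study's heatmaps, leaving out each library, and 3 fits chosen after seeing the data.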

Additional observations from a re-analysis of the deposited data

Results flagged for a closer look

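Among the 40 groups of 4 libraries examined (10 genes in 4 groups), 1 value stood far from the others by Dixon's ratio: H2-D1 in cKO8 was 111 FPKM (110.517), while the other cKO libraries were 94.7 to 97.0 FPKM, and its gap to the nearest library took 0.845 of the group's range on the log2 scale, above Dixon's 95% critical value for 4 samples. Chance flags about 1 in 20 such groups. The value still lies below the lowest Flox library, and without cKO8 H2-D1 fell by 0.85 on the log2 scale (limma, adjusted p = 0.049). Ctrl5 was not singled out by this ratio for any member.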

How the results depend on the processing

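In cKO against Flox, 2 of 10 members and 11 of 36 other antigen presentation genes were called, all lower, beside 12.8% of all tested genes. These counts became 1 and 0 when an absolute log2 fold change over 1 was required, 0 and 0 without a filter beyond a mean over 0 FPKM (0 of 17361 genes were then called), 0 and 0 after median-of-ratios scaling, 0 and 0 with the acinar share as a covariate, 9 and 26 (25 lower) with the 3 libraries per group of the study's heatmaps, and 2 and 5 without trend and robust fitting. Of all tested genes, 63.5% were called lower with the heatmap libraries and 8.25% without trend and robust fitting. With the replicate number as a block 5 members were called, beside 20.8% of all genes called lower. Same-numbered libraries correlated at -0.21 to 0.12 in this table and -0.13 to 0.10 in the other, so the numbers do not pair the libraries. Leaving out 1 library gave 0 to 10 members and 0 to 23 other genes, the highest without Flox17, where 57.2% of all genes were called lower. Median-of-ratios scaling of the heatmap libraries, chosen after seeing the data, gave 0 members and 2 higher other genes, beside 4.77% of all genes called higher. In that fit H2-Aa was 0.043, H2-Ab1 0.025, H2-Eb1 0.055 and Cd74 0.086. Signs turned after median-of-ratios scaling of all libraries for H2-Ab1 (0.011), H2-Eb1 (0.028) and Cd74 (0.024), and with the acinar covariate for H2-K1 (0.10), H2-D1 (0.068), Tap1 (0.19), Tapbp (0.27), Psmb8 (0.34), H2-Ab1 (0.14), H2-Eb1 (0.11) and Cd74 (0.026). None of these turned values was called.

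In OE against Ctrl, 0 members and 0 of 39 other genes were called, and 1 (H2-Aa) and 2, all lower, with the acinar covariate, beside 3.72% of all genes called lower. Signs turned with that covariate for H2-K1 (-0.20), H2-D1 (-0.14), Tap1 (-0.59), Psmb8 (-0.49), H2-Ab1 (-0.98) and Cd74 (-1.20), and after median-of-ratios scaling for Tap1 (-0.16), Psmb8 (-0.19), H2-Ab1 (-0.30) and Cd74 (-0.47). H2-Aa was 0.019 with the heatmap libraries, and without both Ctrl3 and Ctrl5, a pair chosen after seeing the data, B2m was 0.093, H2-Aa 0.060 and H2-Eb1 0.074. Leaving out 1 library gave -0.77 to 0.51 for B2m, -0.29 to 1.03 for Tap1, -0.18 to 1.04 for Psmb8, -0.92 to 0.72 for H2-Aa, -0.50 to 1.18 for H2-Ab1, -0.89 to 0.72 for H2-Eb1 and -0.72 to 0.997 for Cd74, each lowest without Ctrl3 and highest without Ctrl5. No ratio passed with a pseudocount of 0.5; with 1 library left out or with the heatmap libraries none could, since the smallest exact p is then 0.0571 or 0.1. The log2 ratio Psmb8/Psmb5 was -0.43 to 0.46 when 1 HFD library was left out, and H2-Ab1/H2-Aa turned to -0.019 in cKO against Flox with the heatmap libraries. The cause of these changes was not tested. Depth is unknown, and precision is limited by 4 libraries per group, whose exocrine share differed.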

Other observations

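The following genes were named after their values were seen, and no test separates them from the other genes. Psmb10, the third inducible subunit of the immunoproteasome, did not follow Psmb8 and Psmb9. In Ctrl1, Ctrl2, Ctrl3 and Ctrl5 it was 13.1, 25.3, 48.0 and 28.2 FPKM, highest in the library with the largest acinar share, where Psmb8 and Psmb9 were lowest (3.28 and 1.95 FPKM). Psmb9, which lies beside Tap1, was 6.32, 3.82, 1.95 and 29.4 FPKM in the same libraries. In chow-fed islets Psmb10 was 21.4 to 25.4 FPKM in cKO and 14.3 to 22.6 FPKM in Flox (log2 difference 0.25 ± 0.18, limma adjusted p = 0.264).

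Among regulators, Nlrc5, the transactivator of class I genes, was 4.998 FPKM in Ctrl5 and 1.73 FPKM in OE4, and 0.0627 to 0.606 FPKM in the other 14 libraries. Ciita, the transactivator of class II genes, was 1.03 FPKM in Ctrl5 and at most 0.309 FPKM elsewhere. Irf1 was 31.98 FPKM in Ctrl5, against at most 19.3 FPKM in the other libraries. Not all listed regulators peaked there: Rfx5, Jak1 and Jak2 were 4.37, 24.03 and 2.87 FPKM in Ctrl5 and 4.91, 30.7 and 3.24 FPKM in Ctrl1. Ctrl5 was the highest of the 4 Ctrl libraries for 51.9% of the 12132 tested genes. OE4, the OE library with the highest class I values, also had the highest T lymphocyte marker sum among the OE libraries (3.74 FPKM against 0.874 to 1.03 FPKM). The H2-K1 to H2-Aa ratio was 0.994 in Ctrl5 and 1.52 in Ctrl1, and 2.73 to 6.27 in the other 14 libraries.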
